A study of Homo sapiens with 4 samples.

Results

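Solute carriers are membrane proteins that move amino acids, sugars, nucleotides, metals, inorganic ions and metabolites across the plasma membrane and the membranes of organelles. NSUN2 is an RNA methyltransferase that places a methyl group on carbon 5 of cytosine (m5C) in tRNAs and in some mRNAs, and RIP-seq reads the RNA that an antibody pulls down with a protein. The RNA of the solute carrier family held in NSUN2 immunoprecipitates is described here. Members were the protein-coding genes whose symbol begins with SLC and a digit and that had a peak in the lactate or the ddH2O list, without SLC16A1, SLC16A3 and SLC2A1. They came to 222 genes of the 12692 protein-coding genes with a peak. A group of 5 of them, SLC2A4RG, SLC4A1AP, SLC7A6OS, SLC9A3R1 and SLC9A3R2, are named after a carrier and are not themselves transporters. RefSeq holds 383 protein-coding genes of this symbol form, the 3 genes set aside not counted, and 218 of these had a peak under their present symbol, while 4 members carried an older one.

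The cells were wild-type PANC-1, an established line from a human pancreatic ductal adenocarcinoma, given sodium lactate at 30 mM or ddH2O as vehicle for 24 h. Each condition had 1 NSUN2 immunoprecipitation (IP) library and 1 input library of the lysate, 4 libraries in all, so no value has a replicate error, no test across cultures was possible, and all intervals cover counting error only. Sodium and lactate were added together and cannot be told apart, and more RNA of a gene in the cell cannot be told apart from more of it on NSUN2 in a comparison of the IP libraries alone. Of the line's markers KRT7, KRT8, KRT18, KRT19, MUC1 and VIM, all 6 had a peak in at least 1 list, while the acinar, islet and endothelial markers PRSS1, CPA1, INS, GCG and PECAM1 had none, the leukocyte marker PTPRC reached 3 reads and the fibroblast markers COL1A1 and PDGFRB reached 97 and 2 reads. The library kit does not keep the strand, so reads of genes that overlap on opposite strands cannot be told apart.

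The lactate list held 575 solute carrier peaks on 167 genes and the ddH2O list 1048 peaks on 207 genes. Both lists held 152 of the members (68.5%), 55 (24.8%) were in the ddH2O list alone and 15 (6.76%) in the lactate list alone, where all protein-coding genes with a peak had 72.7%, 22.9% and 4.36%. Of the genes in a single list, 39 of the 55 and 14 of the 15 had 1 peak. The ddH2O list was also the longer one over all genes, with 95785 peaks against 48104, and the ddH2O IP gave 3536821 reads in the merged peak windows against 1945000 for lactate, 1.82-fold more, so the number of genes per list was not read as a difference in binding.

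m5C in mRNA is known from 5′ ends as well as from other regions, and few peaks of members reached a transcript start. A peak covered the first 30 bases of the transcript start in 4 of the 179 members with an entry in the RefSeq start table. These starts are shown because they are the only ones that a peak covered, 5′ to 3′ on the transcript strand from RefSeq GRCh38.p14, with each C, the base that NSUN2 can methylate, in capitals. No methylation was measured.
SLC25A51: agtCtgCgCCtgCgCgggCCCCggCtCgCt
SLC38A2: aCagCCgCgCgaCgCCgCCgCCttagaaCg
SLC4A7: agttCtagCttCaggttCCaCgCCgCggCC
SLC8A1: taggttgtgaCagttggaagtgtCatgtaC

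The start of SLC25A51, the mitochondrial NAD carrier, lies at chr9:37904098-37904127 on the minus strand and holds 13 C. That of SLC38A2, a glutamine and neutral amino acid transporter, lies at chr12:46372744-46372773 on the minus strand and also holds 13 C. The SLC38A2 peak lies within the span of SLC38A2-AS1 as well, so its reads could come from either transcript. SLC4A7, a sodium bicarbonate cotransporter, starts at chr3:27484355-27484384 on the minus strand with 11 C. SLC8A1, the sodium calcium exchanger, has a transcript start at chr2:40430275-40430304 on the minus strand with 3 C, which lies inside the span of the gene, chr2:40097270-40512435. The SLC4A7 start was covered by a lactate peak with 3.84-fold enrichment over input, and the other starts by ddH2O peaks with 3.64-fold enrichment for SLC25A51, 2.2-fold for SLC38A2 (q = 0.33) and 6.26-fold for SLC8A1. The letters CNGGG, a motif described for NSUN2 sites, were searched on the transcript strand in the first 50 bases. None of the 4 starts held them there, while 123 of the 259 table entries of members (47.5%) and 8306 of all 22199 protein-coding entries (37.4%) did.

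Most solute carrier peaks lay in introns, and the 3′ UTR came second. Introns held 61.0% of the peaks with lactate (95% Wilson interval 57.0 to 64.9%) and 62.8% with ddH2O (59.8 to 65.7%), close to the 61.5% and 61.2% of the other protein-coding genes. The 3′ UTR held 24.7% with lactate (21.3 to 28.4%) and 19.9% with ddH2O (17.6 to 22.5%), against 18.0% and 15.7% for the other genes. Peaks labelled exon made up 13.2% (10.7 to 16.2%) and 15.6% (13.5 to 17.9%), against 18.8% and 21.1%. The regions are the labels of the deposited lists, and exon does not exclude UTR sequence. At the single merged peak of SLC25A1, SLC25A10 and SLC25A39 the label was 3′ UTR for lactate and exon for ddH2O. How far labels set these shares was not tested. The solute carrier intervals for 3′ UTR and exon thus left out the values of the other genes in both lists, with the 3′ UTR above and the exons below. Peaks on 1 gene are not independent, which these intervals ignore, and the lengths of the regions were not corrected for.

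Among the firmer peaks the order of the regions was the same, with a larger share in the 3′ UTR. With a q-value below 0.05 the 3′ UTR share was 35.3% of 286 lactate peaks and 28.7% of 551 ddH2O peaks, where the other genes had 26.3% and 21.8%, and introns came to 50% and 51.4%. In the lists as deposited, 71.1% of the lactate and 75.6% of the ddH2O 3′ UTR peaks of solute carriers had a q-value below 0.05, against 40.7% and 43.0% of the intron peaks. The fold enrichment over input differed less between regions. Its median was 3.64 for lactate, with a range of 1.47 to 24.0, and 3.03 for ddH2O, with a range of 1.42 to 78.5, while the other protein-coding genes had medians of 3.24 and 3.03. The 5′ UTR held 6 lactate and 18 ddH2O peaks.

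The solute carrier peaks gave 1267 merged peaks of 116484 in all. Their number per gene ran from 1 to 114 with a median of 3, beside a median of 4 over 12470 other protein-coding genes. A single merged peak was present in 74 members, 34 members had 10 or more, and the 10 genes with the most held 28.3% of the merged peaks. The genes with many merged peaks were long, with a median span of 76.9 kb against 23.3 kb for those with 1. SLC25A21, a mitochondrial oxodicarboxylate carrier, spans 494686 bases and had 16 merged peaks, and SLC38A1, which imports glutamine, spans 85981 bases and had 23.

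The member with the most peaks was SLC35F3, a putative thiamine transporter, at chr1:233904676-234324511. It had 54 lactate and 104 ddH2O peaks, which are 9.39% and 9.92% of all solute carrier peaks, and 114 merged peaks, of which 3 lay in an exon and the rest in an intron. Only KCNQ5, LPP, SYT1 and THSD4 had more merged peaks among 12396 protein-coding genes, and the 483 genes with a span of at least 400 kb had a median of 5. Without SLC35F3 the intron share of solute carrier peaks was 57.4% with lactate and 59.0% with ddH2O.

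Strong peaks of SLC35F3 lay at several places along the gene. The lactate peak with the highest enrichment, 18.7-fold, lay at chr1:234188642-234189620, and the ddH2O peak with the highest, 26.7-fold, at chr1:233965810-233966319. The merged peak with the most reads, at chr1:234012880-234014734, had 184 lactate and 218 ddH2O reads. In the first 105 kb the windows of its merged peaks had medians of 11 lactate and 15 ddH2O reads, and in the following stretches of the same length medians of 3 and 13, 6 and 7, and 4 and 11 reads. The ddH2O library had more reads in all, and scaled by the library sums the median log2 ratios of the tested windows in the 4 stretches were 0.50, -0.22, 0.18 and -0.22, while by normalized read density they were -0.06, -0.68, -0.26 and -0.83.

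The other members with the most peaks were SLC39A11, a zinc transporter of the ZIP family, with 29 lactate and 46 ddH2O peaks, and SLC4A7 with 15 and 25. SLC39A11 spans 446740 bases, and its peaks lay mostly in introns, with 27 and 42 there. SLC4A7 had 7 and 15 peaks in introns, 3 and 5 in the 3′ UTR and 5 and 5 labelled exon, so its peaks spread over all of these regions.

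The highest enrichment over input of any member was at SLC5A3, the sodium and myo-inositol cotransporter, whose exon peak at chr21:34096579-34097377 reached 78.5-fold in the ddH2O list and whose lactate peak there, chr21:34096517-34097259, reached 19.6-fold. The windows held 201 lactate and 282 ddH2O reads. This locus also lies within the span of MRPS6, which encodes a mitochondrial ribosomal protein, so the reads could come from either transcript. The IP read counts of this peak were within 2-fold between conditions once scaled, at a log2 ratio of lactate over ddH2O of 0.47 (95% counting interval 0.20 to 0.74) by normalized read density and 0.38 (0.11 to 0.64) by library sums. The reads of the input libraries, which also enter the fold over input, were not analysed here.

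Among the other genes with the highest enrichment were 3 mitochondrial carriers. SLC25A24, the calcium-regulated ATP-Mg and phosphate carrier, had an intron peak at chr1:108166516-108166969 with 24.0-fold enrichment in the lactate list, and the merged peak there reached 20.1-fold in the ddH2O list. SLC25A37, mitoferrin 1, which brings iron into mitochondria, had exon peaks of 17.2-fold for lactate at chr8:23568457-23569007 and 31.7-fold for ddH2O at chr8:23566257-23566952. SLC25A29, a carrier of basic amino acids, had a 3′ UTR peak at chr14:100291022-100291723 with 17.1-fold in the lactate list and 18.0-fold over the merged peak in the ddH2O list. In each of these genes the strong peaks lay at the same or neighbouring positions in both conditions.

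Beside SLC35F3, the remaining pair had its highest enrichment in the ddH2O list. SLC66A2, a PQ-loop protein, had a 3′ UTR peak at chr18:79902308-79903350 with 25.8-fold for ddH2O and 4.05-fold for lactate, while the IP windows held 274 and 150 reads. SLC9A7, a sodium and proton exchanger of the Golgi, had an exon peak at chrX:46606584-46607271 with 23.6-fold for ddH2O and 12.4-fold for lactate.

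How many peaks the lists shared depended on the overlap asked for. Of the lactate peaks on solute carriers 61.9% (57.9 to 65.8%) met a ddH2O peak by at least 1 base, against 58.4% for the other protein-coding genes, and 33.0% (30.2 to 35.9%) of the ddH2O peaks met a lactate peak, against 29.8%. With 50% of both peaks shared these fell to 39.7% and 21.8% of the solute carrier peaks, against 39.8% and 20.7% for the other genes. Among merged peaks, 346 (27.3%) came from both lists, 702 (55.4%) from ddH2O alone and 219 (17.3%) from lactate alone, where all merged peaks had 22.6%, 59.4% and 18.0%.

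The question the conditions pose is whether lactate changes which RNA NSUN2 holds. Merged peaks were compared by their reads in a window of 2000 bases in each IP library, with a log2 ratio of lactate over ddH2O on 2 scales. The first was the normalized read density of the deposited comparison, which takes off a straight line fitted to the pair of libraries, and the second divided the reads by the library sums given above. Of the 1267 merged peaks 464, in 155 genes, had the 20 reads in both windows together that a call needed. The median window of all 1267 held 5 lactate and 7 ddH2O reads, so most merged peaks were too shallow to compare. Of the 1267, 37 on 13 genes lay outside the RefSeq span of the gene the lists name, 14 of them on SLC25A12, and 10 of these 37 were tested.

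The scale set the balance of the calls. By density 33 of 464 merged peaks (7.11%, 95% Wilson interval 5.11 to 9.82%) were over 2-fold higher with lactate and 72 (15.5%, 12.5 to 19.1%) over 2-fold lower, where 7.65% and 18.6% of all 37925 tested merged peaks were. By library sums 78 (16.8%, 13.7 to 20.5%) were higher and 37 (7.97%, 5.84 to 10.8%) lower, against 17.0% and 8.77%. These intervals take the windows as independent, though neighbouring windows share reads and 58 of the 464 lay on SLC35F3. The higher ones were thus 31.4% of the calls by density and 67.8% by sums, and the median log2 ratio was -0.10 by density and 0.18 by sums, beside -0.20 and 0.13 over all tested merged peaks. On either scale the shares of solute carriers were near those of all merged peaks. All 33 peaks higher by density were also higher by sums, 36 of the 37 lower by sums were also lower by density, and 0 peaks were called in opposite directions.

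Counted by gene, 19 of 155 members (12.3%, 7.99 to 18.4%) had a merged peak higher by density and 41 (26.5%, 20.1 to 33.9%) had one lower, against 16.0% and 36.8% of 8970 protein-coding genes. By sums 39 (25.2%, 19 to 32.5%) had one higher and 21 (13.5%, 9.04 to 19.8%) one lower, against 29.1% and 21.1%. The part of the number of tested windows per gene in these shares was not tested.

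Within the family, introns, 3′ UTRs and exons differed. Intron windows of solute carriers had a median log2 ratio of 0.04 by density and 0.54 by sums, 3′ UTR windows -0.15 and 0.07, and exon windows -0.27 and -0.06. By density 28 of the 33 higher peaks lay in introns, 4 in exons and 1 in a 3′ UTR, out of 217, 78 and 164 tested. The lower peaks were 38 in introns, 19 in 3′ UTRs, 14 in exons and 1 in a 5′ UTR. By sums 61 intron, 10 3′ UTR and 7 exon windows were higher and 19, 10 and 7 lower. Over all protein-coding genes, 2037 of 15665 intron, 205 of 8966 3′ UTR and 176 of 8311 exon windows were higher by density, and 2708, 1391 and 1882 were lower. By sums 4279, 593 and 569 of these were higher and 1202, 630 and 960 lower. The same order, intron above 3′ UTR above exon, held over all protein-coding genes, with -0.03, -0.22 and -0.39 by density and 0.45, -0.02 and -0.14 by sums. Intron windows of solute carriers were also shallower, with a median of 32 reads in both libraries together against 108 for 3′ UTR and 59 for exon windows, while the 5 windows in 5′ UTRs had 27, and the part of depth in this order was not tested.

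The 5 solute carrier windows with the most reads did not pass 2-fold on either scale, although shallower windows of SLC38A1 (1 lower by density), SLC19A1 (2 higher by sums) and SLC5A3 (1 lower by density) did. SLC38A1 had the most reads of any solute carrier window, 1664 with lactate and 3225 with ddH2O, in its 3′ UTR at chr12:46187764-46188271. Its log2 ratio was 0.56 (0.47 to 0.64) by density and -0.09 (-0.18 to -0.01) by sums, so its direction turned with the scale. SLC19A1, the reduced folate carrier, had 772 and 1363 reads in its 3′ UTR, with 0.50 by density and 0.04 by sums, in a window that also lies in the span of COL18A1. SLC25A3, the mitochondrial phosphate carrier, had 539 and 1143 reads in an exon window, with 0.17 and -0.22, again of opposite sign. SLC35E1, an orphan of the nucleotide sugar transporter family, had 578 and 1057 reads in its 3′ UTR, with 0.38 and -0.01. The 3′ UTR window of SLC5A3 at chr21:34103005-34103352, with 652 and 965 reads, was above 0 on both scales, at 0.69 (0.54 to 0.83) by density and 0.30 (0.15 to 0.44) by sums. This window also lies in the span of MRPS6, so the reads could come from either transcript.

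Among the 227 merged peaks with at least 50 reads, in 121 genes, the highest ratios were those of SLC20A1, SLC29A4, SLC25A43, SLC4A7 and SLC25A37, all over 2-fold on both scales. The window of SLC20A1, a sodium phosphate cotransporter, at an exon (chr2:112652215-112652450) held 41 lactate and 19 ddH2O reads, a log2 ratio of 1.52 (0.74 to 2.42) by density and 1.93 (1.15 to 2.84) by sums. The much deeper 3′ UTR window of the same gene, with 229 and 486 reads, had -0.04 and -0.22, so the gene as a whole did not move with that exon. SLC29A4, a transporter of monoamines and nucleosides, had the best counted of the 5, with 119 lactate and 71 ddH2O reads in its 3′ UTR at chr7:5303381-5304136 and a log2 ratio of 1.47 (1.04 to 1.92) by density and 1.60 (1.17 to 2.05) by sums. It was the single 3′ UTR peak of a member called higher by density.

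The others lay in introns or an exon. SLC25A43, an orphan mitochondrial carrier, had 42 and 21 reads in an intron window at chrX:119425253-119425655, with 1.43 by density and 1.83 by sums. Of its 12 tested windows, 3 were called higher by density and 6 by sums, and none was called lower, with the range running from -0.34 to 1.43 by density. SLC25A37 had 86 and 54 reads at the exon peak chr8:23568457-23569058, with 1.32 (0.82 to 1.85) and 1.52 (1.03 to 2.05), while its exon window at chr8:23571691-23572581 with 166 and 290 reads had 0.14 and 0.06.

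The lowest ratios were those of SLC43A1, SLC7A6, SLC35C1, SLC1A4 and SLC4A7, all over 2-fold lower on both scales. SLC43A1, a transporter of large neutral amino acids, had 9 lactate and 41 ddH2O reads in an exon window at chr11:57484478-57485143, a log2 ratio of -1.71 (-3.05 to -0.76) by density and -1.21 (-2.55 to -0.26) by sums. SLC35C1, the GDP-fucose transporter of the Golgi, had 11 and 47 reads in its 3′ UTR, with -1.60 and -1.14. The intervals are wide because the lactate windows held few reads, between 9 and 13 in all 5.

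SLC1A4, a transporter of alanine, serine and cysteine, was low along its 3′ end. Its exon window at chr2:65020918-65021812 had 13 and 51 reads, with -1.46 by density and -1.03 by sums. The 2 deeper 3′ UTR windows after it had 94 and 348 reads and 154 and 481 reads, with -0.98 and -0.64 by density and -1.01 and -0.77 by sums. All 3 windows lay on the same side of 0, and neighbouring windows share reads.

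Some members held both higher and lower windows. They were SLC12A9, SLC35F3, SLC39A11, SLC4A7 and SLC7A6, the same 5 of 155 genes on both scales, where 8.04% of 8970 protein-coding genes did by density and 8.19% by sums. SLC7A6, a subunit of an exchanger of cationic and neutral amino acids, had 22 lactate and 7 ddH2O reads in an intron window at chr16:68288423-68288933, a log2 ratio of 1.79 (0.64 to 3.38) by density and 2.39 by sums. Its 3′ UTR window at chr16:68298671-68299009 went the other way with 13 and 58 reads, -1.63 (-2.71 to -0.83) and -1.21, and this end of the gene overlaps the span of SLC7A6OS, itself a member by symbol. SLC4A7 had 57 and 32 reads in an intron window at chr3:27427100-27427673, with 1.36 (0.73 to 2.05) and 1.68, and 13 and 50 reads in a 3′ UTR window at chr3:27394395-27394867, with -1.44 (-2.52 to -0.61) and -1.0. In SLC4A7 the deepest window, in the 3′ UTR with 174 and 349 reads, lay between them at -0.03 and -0.14.

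SLC35F3 had 58 tested windows, of which 5 were higher and 15 lower by density and 11 higher and 10 lower by sums. Its window at chr1:234249791-234250485 was the only tested window of a member with 0 lactate reads, beside 29 ddH2O reads. Set at the limit of 3 reads that a count of 0 allows, it was 5.32-fold lower by sums and 9.40-fold lower by density, and the counting interval, which also covers the error of the 29 reads, ended at log2 ratios of -2.02 and -2.84. SLC39A11 had 1 higher and 4 lower windows by density among 14 tested, and 2 and 2 by sums. SLC12A9, an orphan of the cation-chloride cotransporter family, had an exon window with 34 and 21 reads, at 1.11 and 1.53, and an intron window with 6 and 27 reads, at -1.73 and -1.14, the latter within the span of SLC12A9-AS1.

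In other genes the windows shared a sign, which is no call, and neighbouring windows share reads. Of the 53 members with at least 3 tested windows, 6 had every window above 0 on both scales, SLC19A1, SLC25A24, SLC2A12, SLC35D1, SLC36A4 and SLC37A3, and 5 had every window below 0, SLC1A4, SLC25A12, SLC25A15, SLC2A11 and SLC4A1AP, where 5.11% and 8.81% of 3780 protein-coding genes did. By density alone it was 6 above and 7 below, against 5.71% and 19.6%, and by sums alone 12 and 6, against 13.7% and 9.66%. SLC36A4, an amino acid transporter, had 5 tested windows from 0.10 to 1.22 by density, its 3′ UTR window holding 136 and 145 reads at 0.74. SLC25A24 had 6 tested windows from 0.21 to 1.58 by density, all in introns. SLC25A15, the mitochondrial ornithine carrier, had 3 from -1.13 to -0.94, its 3′ UTR windows holding 31 and 92 reads and 27 and 91 reads. For SLC25A12, the aspartate and glutamate carrier, the 3 tested intron windows carried its name in the peak lists but lay outside its RefSeq span and within that of HAT1, so only its 3′ UTR windows can be read as its own.

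By substrate, the counts of genes are read against the shares of all tested protein-coding genes, 16.0% higher and 36.8% lower by density and 29.1% and 21.1% by sums. The largest groups were 39 mitochondrial carriers and 24 amino acid and amine transporters. Every amino acid transporter that was a member had a ddH2O peak, and 20 of the 24 had a lactate peak. Members needed a peak in a list, and of the 12692 protein-coding genes with one, 12138 had a ddH2O and 9783 a lactate peak. Of the 22 with a tested window, 3 had one higher and 9 one lower by density, and 7 and 4 by sums. The 3 called higher on both scales were SLC36A4, SLC6A16 and SLC7A6. Those called lower on both scales were SLC1A4, SLC43A1, SLC7A6 and SLC7A1, the arginine and lysine importer, whose intron window held 1 lactate and 19 ddH2O reads.

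The amino acid transporters best known in cancer cells stayed within 2-fold in their deepest windows, while SLC7A5 had a shallow intron window higher by sums (17 and 10 reads, 0.98 by density and 1.57 by sums) and SLC7A11 one lower by density (5 and 16 reads, -1.31 and -0.64). SLC7A5, the light chain of the large neutral amino acid transporter, had 614 and 926 reads in its 3′ UTR at chr16:87829913-87830702, with 0.65 (0.50 to 0.80) by density and 0.27 (0.12 to 0.42) by sums. SLC3A2, its heavy chain, had 129 and 280 reads in its 3′ UTR, with -0.21 (-0.52 to 0.09) and -0.25 (-0.57 to 0.05). SLC7A11, the cystine and glutamate exchanger, had 70 and 121 reads, with -0.05 (-0.51 to 0.38) and 0.08 (-0.37 to 0.51), in a window within the span of SLC7A11-AS1. The intervals of SLC3A2 and SLC7A11 held 0 on both scales.

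SLC1A5, the glutamine importer ASCT2, had 281 and 574 reads in its 3′ UTR, with 0.06 (-0.15 to 0.26) by density and -0.17 (-0.38 to 0.04) by sums. SLC38A2 had 8 and 14 reads in its only merged peak and SLC6A6, the taurine transporter, 14 and 11 in a 3′ UTR window, the latter with 0.58 by density and 1.18 by sums, over 2-fold on the second scale alone.

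Among mitochondrial carriers, 33 of 39 had a lactate peak and 37 a ddH2O peak. Of the 29 with a tested window, 5 had one higher and 5 one lower by density, against 16.0% and 36.8% of all genes, and 5 and 2 by sums, against 29.1% and 21.1%. The genes with a higher window were SLC25A17, SLC25A24, SLC25A37, SLC25A40 and SLC25A43 on both scales, of which SLC25A17, a carrier of the peroxisomal membrane, is in the group by family number. SLC25A6, an ADP/ATP carrier in the pseudoautosomal region with an identical copy on the other sex chromosome, had 283 and 522 reads in an exon window, with 0.20 and -0.02, and SLC25A5, a second ADP/ATP carrier, had no peak in either list.

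Transporters for lactate and for the protons that go with it are closest to the treatment, and few were deep enough to compare. The list of monocarboxylate transporters without SLC16A1 and SLC16A3 held 7 members, with 4 listed for lactate and 5 for ddH2O, and none of the 3 with a tested window was called on either scale. SLC16A5 had 52 and 89 reads in an exon window, with -0.11 by density and 0.10 by sums. SLC16A7, the high-affinity monocarboxylate transporter MCT2, had 0 lactate and 3 ddH2O reads, at the limit that a count of 0 allows, and SLC5A8 and SLC5A12, which import lactate with sodium, had no peak.

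Exchangers that regulate pH gave more tested windows. Of the 23 bicarbonate, proton and anion exchangers, 11 had a tested window, and 2 had one higher and 2 one lower by density, and 3 and 2 by sums. SLC4A7 and SLC9A7 were the genes with a window higher by density, and the higher windows of SLC9A7 were all in introns.

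SLC12A2, the sodium, potassium and chloride cotransporter that sets cell volume, was lower in several exon windows. Of its 5 exon windows with at least 20 reads, 4 were lower by density, with 3 and 18, 6 and 37, 2 and 26, and 8 and 24 reads, and 3 by sums. Their log2 ratios by density were -2.09, -2.13, -3.01 and -1.19, with intervals as wide as -6.66 to -1.54 for the window with 2 lactate reads. The 3′ UTR window of the gene, with 23 and 37 reads, was within 2-fold at -0.21 and 0.20. The whole group of cation-chloride, calcium and phosphate transporters had 11 genes with a tested window, with 2 higher and 4 lower on both scales, and a median log2 ratio of -0.51 by density and -0.05 by sums, the lowest density median of the groups.

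Metal carriers and nucleotide sugar transporters followed the scale in the same way. Of 17 zinc and other metal transporters with a tested window, 2 had one higher and 5 one lower by density, against 16.0% and 36.8% of all genes, and 6 and 3 by sums, against 29.1% and 21.1%. SLC39A14, a zinc and iron importer, had 2 neighbouring intron windows higher on both scales, each with 16 and 6 reads at 1.49 by density and 2.14 by sums. Neighbouring windows can share reads, so these may hold the same reads. The deepest window of SLC39A14, in the 3′ UTR with 79 and 117 reads, had 0.18 and 0.30. SLC11A2, the divalent metal transporter, had 70 and 89 reads in its deepest 3′ UTR window, with 0.35 and 0.52, and another 3′ UTR window with 9 and 28 reads that was lower by density at -1.22 and had -0.67 by sums. SLC30A1, the zinc exporter of the plasma membrane, and SLC40A1, the iron exporter ferroportin, had no peak. SLC39A6, a zinc importer, had an exon window with 5 and 35 reads, at -2.30 and -1.72. The medians of its 3 tested windows were -0.36 and -0.10, and its deepest, with 410 reads in both libraries together, was not called. Of 18 genes of the nucleotide sugar transporter family with a tested window, 2 had one higher and 5 one lower by density, and 6 and 2 by sums, with SLC35F3, which is there by family number, counted on both sides.

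The smaller groups held few tested genes. Of 13 sugar and sodium-coupled solute transporters, 1 had a window higher and 4 one lower by density, and 2 and 1 by sums, and SLC2A3, the glucose transporter GLUT3, had 2 and 11 reads in its deeper window. Of 10 organic ion, bile acid, peptide and vitamin transporters, 0 had one higher and 1 one lower by density, and 2 and 0 by sums. Of 7 fatty acid, choline and acetyl-CoA transporters, 1 and 2 did by density and 3 and 1 by sums, with SLC44A2, a choline transporter, at 86 and 110 reads and 0.39 and 0.51, and SLC33A1, which brings acetyl-CoA into the endoplasmic reticulum, at 22 and 34 reads and -0.16 and 0.26 in its 3′ UTR. SLC33A1 was the gene called higher by density, through an exon window with 14 and 7 reads at 1.12 and 1.77. The gene lower by sums was SLC27A3, also lower by density, with 26 and 100 reads at -1.31 and -1.04. Its only merged peak lay outside its RefSeq span, so it cannot be read as its own. All 4 nucleoside transporters were tested, with SLC29A4 higher on both scales and SLC29A1, SLC29A2 and SLC29A3 each with a window lower by density, of which SLC29A3 remained lower by sums with 4 and 25 reads.

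Other membrane transporters were counted in the same way. Of 37 ABC transporter genes with a peak, 20 had a tested window, and 3 had one higher and 3 one lower on both scales. Of 33 ion-pumping ATPase genes, 23 had a tested window, with 5 higher and 6 lower by density and 7 and 3 by sums. The 3′ UTR held 18.5% of the ABC transporter peaks and 9.78% of the ATPase peaks in the lactate list, beside 24.7% for solute carriers, and 18.3% and 8.96% in the ddH2O list, beside 19.9%.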

How the data were processed

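NSUN2 RIP-seq of PANC-1 cells had 4 libraries, with 1 IP and 1 input library for each of lactate and ddH2O, grouped by the sample labels. Per the submitters' processing notes, fastp 0.20.1, HISAT2 2.1.0, MACS2 2.2.7.1, bedtools 2.29.2, HOMER 4.11.1 and DiffBind were used on GRCh38 (hg38). Peaks were called by the authors per library (IP against the matching input), without pooling. Each deposited peak has a gene, a biotype, a region and a fold, which is the ratio of IP to input, together with p-value and q-value columns and the −log10 of both. Another deposited table holds the merged peaks compared with MAnorm, with the normalized read density (a signal) of each IP library. It also holds the ratio, mean density and P of the authors' own comparison, which were not used. Every per-sample column was used.

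From the densities the reads of each window of 2000 bases were computed back, as the reads plus 1 per kb after a straight line with a slope of 0.17 and an intercept of -0.20. In 99.998% of windows both values came out whole within 0.1 reads. The recovery and the calls were tested on simulated data. The library sums leave out the 2 windows of MT-RNR2 and MALAT1 and take all other binding as equal in sum. The total depth of the libraries is unknown. Merged peaks took the gene of any called peak they met by 1 base, and windows of neighbouring peaks shared reads for 48.2% of solute carrier merged peaks. A call needed over 2-fold and at least 20 reads in both windows together. Intervals are 95% Wilson intervals for shares and exact Clopper-Pearson intervals for read ratios, cover counting error only, and take reads as independent molecules.

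Members, groups and lists were chosen with earlier results of these data known, and the groups were written from general knowledge by family number. Named were the 5 genes with the most reads in 1 window, the 5 highest and 5 lowest density ratios with at least 50 reads, the 5 highest folds over input per list at a q-value below 0.05, the 3 genes with the most peaks and 25 genes chosen by function, of which 1 is not reported here. Other genes were named after their values were seen. Starts came from RefSeq GRCh38.p14, whose symbols matched 222 members, 4 of them as a synonym. Scripts ran in Python 3.11.15 (matplotlib 3.10.9, scipy 1.17.1, pandas 2.3.3, numpy 2.4.6).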

Additional observations from a re-analysis of the deposited data

How the results depend on the processing

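No paired analysis was possible because only 1 IP library was made per condition. Of the alternative values for the main counts and shares, 43 moved by more than 1.5 times (counts) or out of the interval (shares) and 32 did not. The 33 higher and 72 lower merged peaks became 78 and 37 by library sums, 77 and 169 with a minimum of 10 reads, 12 and 14 with a minimum of 50 reads, 3 and 19 past 4-fold, 10 and 26 in windows that met no other window, and 5 and 34 in exons and UTRs. Alternatives chosen after seeing the data gave 167 higher by sums with a minimum of 10 reads, 8 lower by sums with a minimum of 50 reads, 67 higher and 27 lower by sums without SLC35F3, and 76 higher and 35 lower by sums (33 and 68 by density) without peaks outside the RefSeq span of their gene. The 19 genes with a higher and 41 with a lower window became 39 and 21 by sums, 46 and 75 with a minimum of 10 reads, 10 and 12 with a minimum of 50 reads, and 3 and 12 past 4-fold. With a q-value below 0.05, introns held 50% of lactate and 51.4% of ddH2O peaks, the 3′ UTR 35.3% and 28.7%, and exons 18.7% of ddH2O peaks. With a fold over input of at least 4, 101 genes had a lactate peak, and ddH2O introns, 3′ UTR and exons held 55.4%, 23.6% and 19.4%. With as many best-scoring ddH2O peaks as the lactate list has, these were 51.3%, 28.6% and 18.8%, and without SLC35F3, added after seeing the data, the ddH2O intron share was 59.0%. The overlap of the lists was 39.7% of lactate and 21.8% of ddH2O peaks when 50% of both peaks had to be shared, and 76.2% and 38.3% among peaks with a q-value below 0.05. The other protein-coding genes had 39.8% and 20.7%, and 71.4% and 32.1%. The cause of these moves was not tested, beyond the fewer or more peaks that each minimum or limit leaves. Of the called peaks, 93 of 105 by density and 101 of 115 by sums had a counting interval that left out a ratio of 1. The calls and the intervals came from the same reads, so these counts are no support for the calls.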
